A study of Mus musculus with 13 samples.

Results

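The genes described here encode the laminins, the nidogens Nid1 and Nid2, the heparan sulphate proteoglycans Hspg2 and Agrn, fibronectin (Fn1), dystroglycan (Dag1) and the integrins. They were chosen by gene symbol alone: every laminin alpha, beta and gamma chain, every integrin alpha and beta chain, and these 6 additional genes. This gave 43 of the 23364 genes in the files, made up of 11 laminin chains, 18 integrin alpha chains, 8 integrin beta chains and the 6 others. Of the 43, 41 reached 1 FPKM (reads on a gene, normalised to its length and to all reads on genes in that sample) in at least 1 sample and were tested, among 14650 tested genes in all. The integrin alpha chains Itgad and Itgae stayed below 1 FPKM in every sample and were not tested. Of the 41, 32 reached 1 FPKM in embryo, P5 and adult alike. The filter was passed only through adult samples by 3 (Lamc3, Itgb6 and Itgax), only through embryonic samples by 3 (Lama1, Itga10 and Itga11) and only through embryonic and P5 samples by 3 (Itga2, Itga4 and Itga2b), an entry to the test that favours a difference between stages.

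RNA-seq was performed on whole submandibular salivary glands of C57BL/6 mice at 6 time points, in 13 samples. Embryonic glands were taken at E14.5 (3 samples), E16.5 (2) and E18.5 (2), neonatal glands at postnatal day 5 (P5, 2), and adult glands at 4 weeks (4wk, 2) and 12 weeks (12wk, 2), with no genotype or treatment given beyond the strain. Each embryonic sample pooled the glands of more than 1 animal, the adult mice were male, and sex was not ascertained at the earlier ages. Following the study, E14.5 to E18.5 were joined as embryo (7 samples), the 4 later samples of 4wk and 12wk formed the adult group, and neighbouring time points were also compared. The sources do not state how the P5 and adult samples relate to individual animals, so p-values measure the spread between these samples. Sex and age cannot be told apart between the embryo and the adult.

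The steps in the low FPKM values gave totals from 5817293 reads on genes in a 4wk sample to 48314162 in a P5 sample. 1 read on a gene of 1 kb was therefore worth from 0.0207 to 0.1719 FPKM, and the 4wk samples were the shallowest. The tissue label fitted its markers: the summed FPKM of 5 granular duct markers was at most 132.9 in the embryo and at least 32630 in the adult. That of 7 acinar markers was at most 458.3 at E14.5, 28360 to 35270 at E18.5 and 34010 to 91100 in the adult. Embryo and adult thus overlapped in the acinar sum. Its largest part in the adult was Pip, at 30020 to 73390 FPKM. Smgc went the other way, with 17750 and 19480 FPKM at E18.5 and at most 58.55 in the adult. The 10 highest genes took 6.0 to 7.2% of all FPKM at E14.5 but 48.1 to 61.1% in the adult. Since FPKM are shares of a total, each comparison was therefore made both on the values as deposited and after median-of-ratios rescaling, whose factors were 1.148 to 1.38 in the embryo and 0.617 to 0.714 in the adult. The median over all tested genes was -0.75 on the log2 scale, adult against embryo, as deposited, and -0.08 after rescaling. In what follows, a gene rose or fell only if both scalings gave a log2 change past 1 in the same direction at an adjusted p below 0.1.

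Basement membranes are thin sheets of matrix beneath epithelia and around muscle, nerve and vessels. Each laminin is a trimer of 1 alpha, 1 beta and 1 gamma chain. The beta and gamma chains, together with the alpha chain, join laminins into a network, and the end of the alpha chain is bound by integrins and dystroglycan on the cell. Nidogens and perlecan, the product of Hspg2, connect the laminin network to that of type IV collagen. Integrins are pairs of 1 alpha and 1 beta chain. In the developing submandibular gland the basement membrane is remodelled as the epithelium branches, and fibronectin is known for its role in forming the clefts between buds.

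The proximal upstream sequences of 4 members are shown because the genes moved in opposite directions, Lamb1 and Nid1 falling and Lamb3 and Itgb6 rising between the embryo and the adult. Each is the 200 bases before the annotated start, written 5′ to 3′ on the strand of the gene, from RefSeq on GRCm38.p6, a later build than the mm9 of the FPKM files. Capitals mark a GC box (GGGCGG) or a CCAAT box (CCAAT) on either strand. The windows lie at chr12:31265093-31265292 (plus strand) for Lamb1, chr13:13437402-13437601 (plus) for Nid1, chr1:193301794-193301993 (plus) for Lamb3 and chr2:60722604-60722803 (minus) for Itgb6, and for the latter pair the first of 2 annotated starts is shown.
Lamb1: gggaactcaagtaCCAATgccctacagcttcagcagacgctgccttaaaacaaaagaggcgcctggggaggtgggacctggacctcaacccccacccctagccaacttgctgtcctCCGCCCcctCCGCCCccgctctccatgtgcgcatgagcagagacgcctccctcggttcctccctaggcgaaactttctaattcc
Nid1: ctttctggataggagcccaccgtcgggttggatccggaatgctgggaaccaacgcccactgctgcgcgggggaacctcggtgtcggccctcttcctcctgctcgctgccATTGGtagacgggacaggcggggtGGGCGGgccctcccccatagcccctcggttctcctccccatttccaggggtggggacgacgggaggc
Lamb3: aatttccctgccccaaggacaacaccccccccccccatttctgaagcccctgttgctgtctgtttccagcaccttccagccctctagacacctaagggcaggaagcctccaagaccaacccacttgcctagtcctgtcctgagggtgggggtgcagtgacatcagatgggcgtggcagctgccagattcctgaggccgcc
Itgb6: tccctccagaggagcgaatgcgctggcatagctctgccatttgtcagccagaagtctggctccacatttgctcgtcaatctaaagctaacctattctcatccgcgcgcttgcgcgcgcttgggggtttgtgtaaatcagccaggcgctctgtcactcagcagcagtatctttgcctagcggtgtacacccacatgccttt

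Lamb1 held 2 GC boxes and 1 CCAAT box in this window, and Nid1 held 1 of each, while neither motif nor a TATA box (TATAAA) was found in the windows of Lamb3 and Itgb6. Promoter entries were found for 27 members, with 32 starts. Over the table's entries of 250 bases before and 50 after the start, the GC box was found in 18 of these 32 (56.2%) and in 35.7% of all 32851 promoters. The CCAAT box was found in 7 of the 32 (21.9%) and in 37.4% of all, and the TATA box in 0 of the 32 and in 13.6% of all. These are matches of letters only. Entries for, among others, Lama1, Lama3, Lama4, Lamc1, Lamc3, Nid2, Fn1, Itga6, Itgad, Itgae, Itgal, Itgb2, Itgb3 and Itgb4, and for Itga7, were not used here.

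**Figure D1:**
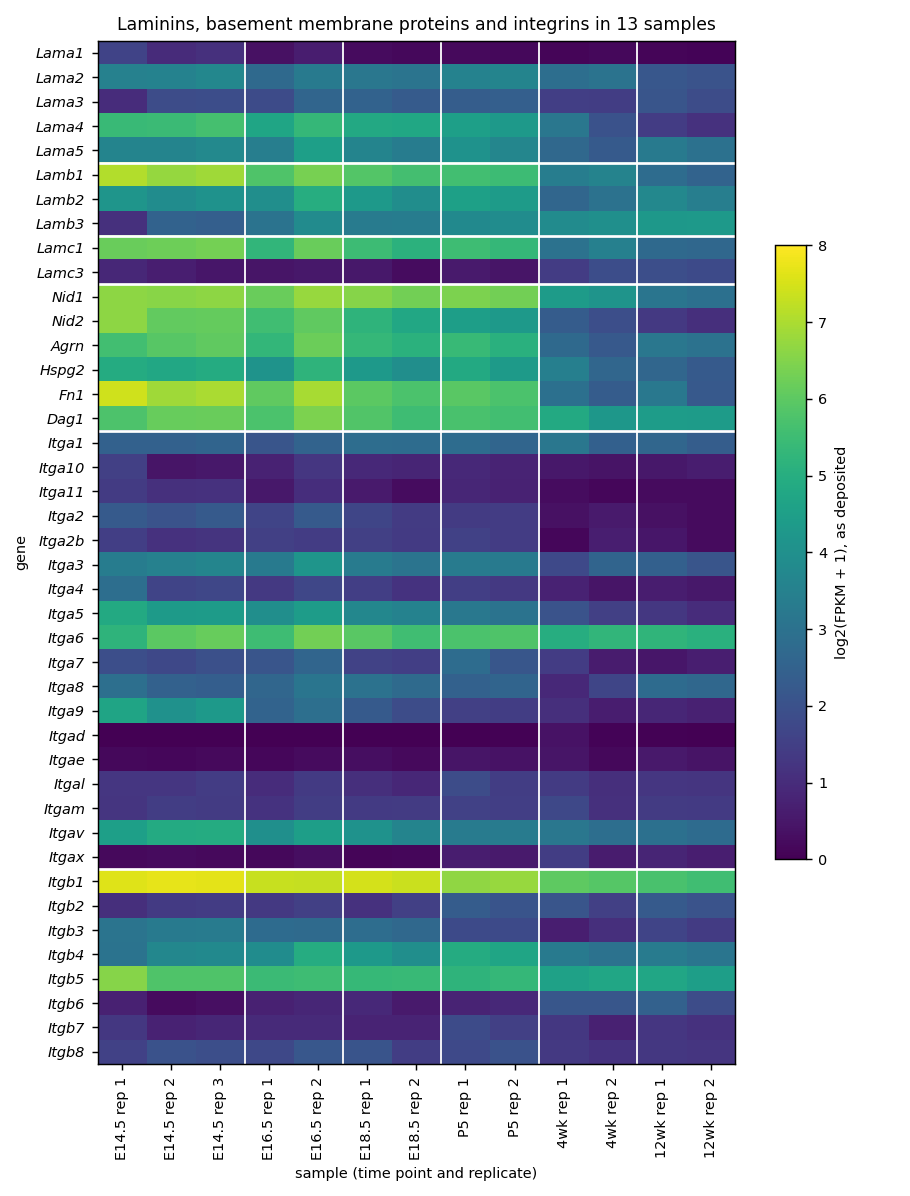
Log2(FPKM + 1) as deposited (colour, scale from 0 to 8) for the genes reported (rows, grouped by laminin alpha, beta and gamma chains, other basement membrane genes with Fn1 and Dag1, integrin alpha and integrin beta chains) in each of 13 samples (columns, ordered by age). Lamb1, Lamc1, Nid1, Nid2, Agrn and Fn1 are bright in the embryonic and P5 columns and dark in the 4 adult columns, while Lamc3 and Itgb6 show the opposite order. Lamb3 is darkest in the E14.5 columns, and its P5 and 4wk columns are of like brightness.

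Between the embryo and the adult, 3 laminin chains, both nidogens, agrin, fibronectin and 4 integrin chains fell, while 2 laminin chains and 1 integrin chain rose. Of the 41 tested members, 14 changed under both scalings. Lamb1, Lamc1, Lama4, Nid1, Nid2, Agrn, Fn1, Itga2, Itga5, Itga9 and Itgb3 fell, and Lamb3, Lamc3 and Itgb6 rose. As deposited alone, 24 members were called (3 higher, 21 lower) where 43.6% of all tested genes were called (5.58% higher, 38.0% lower). After rescaling, 16 were called (5 higher, 11 lower) against a background of 28.4% (13.8% higher, 14.7% lower). The share of all genes called under both scalings is not given, here or for the other comparisons. It cannot exceed the smaller of the shares under each scaling alone. The median member stood at -1.0 as deposited and -0.39 after rescaling, beside the -0.75 and -0.08 of all genes. Of the 14, 13 were also called under both scalings when any single sample was left out and when the adult was represented by 12wk alone, the exception being Itgb3.

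**Figure D2:**
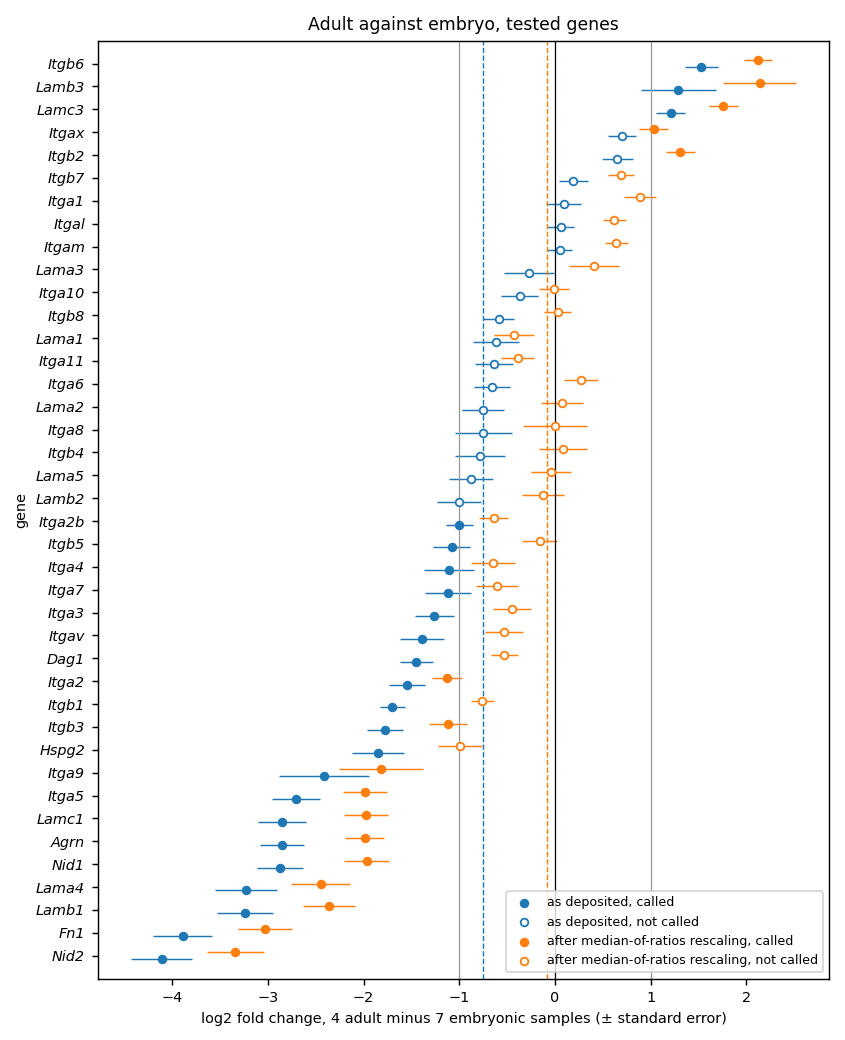
Log2 fold change of the tested genes reported, 4 adult minus 7 embryonic samples, with standard errors, as deposited (blue) and after median-of-ratios rescaling (orange), filled where called. Dashed lines mark the medians of all tested genes, -0.75 and -0.08, and grey lines the threshold of 1 in either direction. Nid2, Fn1, Lamb1 and Lama4 lie at the lower end and Itgb6, Lamb3 and Lamc3 at the upper end under both scalings.

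Laminin beta chains exchanged their order. Lamb1, whose product is the beta chain of the widespread early laminins, lies on mm9 chr12:31950099-32014509. Its level was 135, 105 and 114 FPKM at E14.5, 54.1 and 81.4 on E16.5, 56.6 and 48.0 on E18.5, 46.8 and 43.9 on P5, 9.49 and 10.96 in the 4wk pair, and 6.12 and 4.82 in the 12wk pair. Every embryonic and P5 sample was above every adult sample. Lamb1 fell by 3.24 on the log2 scale between embryo and adult (SE 0.29, adjusted p = 3.5e-07), and by 2.36 after rescaling (adjusted p = 7.7e-06). The step from P5 to 4wk was -2.05 (SE 0.20, adjusted p = 1.6e-05), and -1.42 after rescaling.

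Lamb3 (mm9 chr1:195128151-195170072) encodes the beta chain of the epithelial laminin that anchors basal cells at hemidesmosomes. It was measured at 1.15, 4.78 and 4.35 FPKM at E14.5, 7.18 and 13.6 on E16.5, 8.97 and 9.21 on E18.5, 12.9 and 13.8 on P5, 13.6 and 14.7 in the 4wk pair, and 18.1 and 18.6 in the 12wk pair. The 4 adult samples were all above the embryonic samples, the closest pair being 13.61 FPKM at 4wk and 13.59 on E16.5. Lamb3 rose by 1.29 (SE 0.39, adjusted p = 0.0078), and by 2.14 (adjusted p = 0.00029) after rescaling. After P5 no rise of Lamb3 was called. Adult against P5, the difference was 0.25 (SE 0.54, adjusted p = 0.72), and 0.90 (adjusted p = 0.23) after rescaling. From P5 to 4wk it was 0.08 (SE 0.40, adjusted p = 0.88), and 0.72 (adjusted p = 0.15) after rescaling. Lamb3 was 1 of the 2 members called between E14.5 and E16.5, with 1.43 (SE 0.36, adjusted p = 0.021). That early call depended on single samples, since the change was 0.97 without E14.5 replicate 1 and 1.01 with an adjusted p of 0.14 without E16.5 replicate 2. E14.5 replicate 1 stood apart from its group, with a correlation over genes of 0.97 and 0.974 with the other E14.5 samples, which correlated at 0.996 with each other. Epithelial markers moved with Lamb3 at this step: the sum of 5 was 316.2 to 555.3 FPKM at E14.5 and 1134 to 1457 on E16.5. E14.5 replicate 1 was the lowest, with Epcam at 101.5 FPKM against 162.7 and 159.0 in the other E14.5 samples and the acinar gene Aqp5 at 0.569 against 9.13 and 5.98. The part of epithelial content in the change of Lamb3 was not tested.

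Lamb2, encoding the beta chain best known from neuromuscular and glomerular basement membranes, was called in 1 comparison under both scalings. Its level was 13.9 to 30.8 FPKM in the embryo (median 15.8), 22.3 and 19.9 on P5, 5.20 and 7.02 in the 4wk pair, and 12.2 and 9.61 in the 12wk pair. The 4wk values were thus the lowest of the series. From P5 to 4wk it fell by 1.65 (SE 0.28, adjusted p = 0.00065), and by 1.04 after rescaling, a call that was lost without 4wk replicate 1. From 4wk to 12wk the difference was 0.75 (SE 0.28, adjusted p = 0.12).

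Shares of the summed FPKM of a class within a sample do not depend on how samples are scaled, and are given as a description without a test. Lamb1 made up 84.8 to 88.2% of the beta chain FPKM at E14.5, 64.7 to 71.5% at E16.5, 67.0 and 67.2% on E18.5, 57.1 and 56.6% on P5, 33.5% in both 4wk samples, and 16.8 and 14.6% in the 12wk pair. The share of Lamb3 was 0.752 to 3.87% at E14.5, 9.48 to 12.9% from E16.5 to E18.5, 15.7 and 17.8% on P5, 48.1 and 45.0% in the 4wk pair, and 49.7 and 56.3% in the 12wk pair. The ratio of Lamb3 to Lamb1 was below 1 in all embryonic and P5 samples, with 0.314 as its highest value there. It was 1.43 and 1.34 in the 4wk pair and 2.96 and 3.86 in the 12wk pair. At the step from P5 to 4wk, Lamb1 and Lamb2 fell and Lamb3 was not called.

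**Figure D3:**
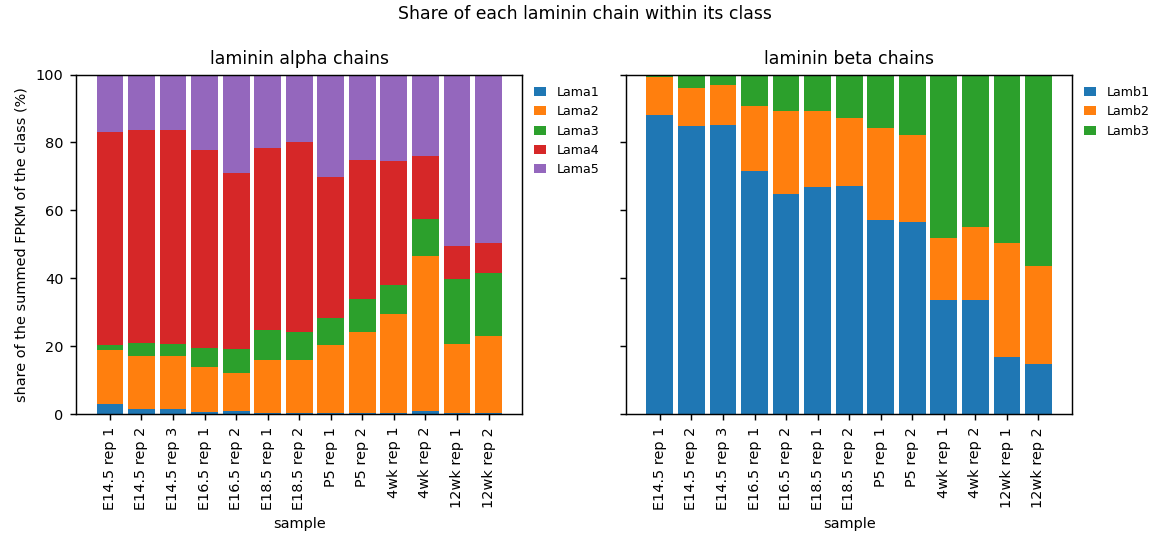
Share (percent, stacked bars) of each laminin alpha (left) and beta (right) chain in the summed FPKM of its class, for each of 13 samples ordered by age. Lamb1 shrinks from 84.8% or more at E14.5 to 14.6 and 16.8% at 12wk while Lamb3 grows, and Lama4 gives way to Lama5 at 12wk.

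Among the laminin alpha chains, Lama4, known from vessels and other mesenchymal basement membranes, was highest from E14.5 to P5. It was measured at 42.1, 43.2 and 48.7 FPKM at E14.5, 25.0 and 39.1 on E16.5, 27.7 and 26.3 on E18.5, 21.9 and 19.0 on P5, 7.93 and 3.01 in the 4wk pair, and 1.69 and 1.22 in the 12wk pair. Embryonic and adult samples did not overlap. Lama4 fell by 3.23 (SE 0.32, adjusted p = 7.6e-07) between embryo and adult, and by 2.45 after rescaling. It fell by 1.84 (SE 0.31, adjusted p = 0.00054) from P5 to 4wk, where the call under both scalings was lost without 4wk replicate 2. It fell further, by 1.29 (SE 0.31, adjusted p = 0.021), from 4wk to 12wk. The later step was -0.72 without 4wk replicate 1, and its adjusted p was 0.15 without 12wk replicate 2 and 0.16 when only the 4wk and 12wk samples entered the fit.

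The remaining alpha chains were not called under both scalings in any of the 8 comparisons. Lama5, the broadly expressed epithelial alpha chain, was measured at 9.30 to 21.8 FPKM in the embryo, 15.9 and 11.7 on P5, 5.54 and 3.82 in the 4wk pair, and 8.80 and 6.95 in the 12wk pair. Its difference between adult and embryo was -0.88 (SE 0.23, adjusted p = 0.0029) as deposited and -0.04 after rescaling. As a share of alpha chain FPKM, Lama5 was 16.2 to 16.9% at E14.5 and 50.5 and 49.7% in the 12wk pair, against 62.8 to 63.0% and 9.71 and 8.70% for Lama4. Only at 12wk and in 4wk replicate 2 was Lama5 above Lama4, with ratios of 5.21 and 5.71 in the 12wk pair and 1.27 in that 4wk sample.

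Lama2, the alpha chain of muscle and nerve basement membranes, stood at 5.63 to 12.1 FPKM in the embryo, 10.6 and 11.1 on P5, 6.34 and 7.31 in the 4wk pair and 3.54 and 3.17 in the 12wk pair. The chain held 45.7% of the alpha chain FPKM in 4wk replicate 2, more than any other chain there, and 29.2% in 4wk replicate 1. Lama3, which pairs with Lamb3 in the hemidesmosomal laminin, was measured at 1.03 to 5.15 FPKM in the embryo and 1.75 to 3.31 in the adult (log2 fold change -0.27, SE 0.26, adjusted p = 0.35).

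Lama1, an alpha chain of early embryonic basement membranes, was low throughout. Its values were 2.04, 0.970 and 1.16 FPKM at E14.5 and 0.0517 to 0.572 in all later samples. On the log2(FPKM + 1) scale, which understates the change of low genes, the difference between adult and embryo was -0.62 (SE 0.24, adjusted p = 0.031). With a pseudocount of 0.1 it was -1.84 (adjusted p = 0.01), which passed the threshold. Lama1 passed the filter of 1 FPKM only through 2 E14.5 samples, and had 4 to 16 reads per adult sample. With no filter the change as deposited was -0.62 (adjusted p = 0.041).

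Among the laminin gamma chains, Lamc1 fell and Lamc3 rose. Lamc1 (mm9 chr1:155066052-155179916), the gamma chain of most laminins and the one that nidogens bind, was at 71.6, 73.7 and 79.1 FPKM at E14.5, 37.8 and 71.2 on E16.5, 44.0 and 34.1 on E18.5, 45.0 and 39.5 on P5, 7.01 and 10.1 in the 4wk pair, and 5.72 and 5.41 in the 12wk pair. The mean was already lower on E18.5 (39.1 FPKM) than at E14.5 (74.8), though no step between neighbouring time points before P5 was called. The largest fall came between P5 and 4wk, with no overlap of earlier and adult samples. Lamc1 fell by 2.85 (SE 0.25, adjusted p = 2.7e-07) between embryo and adult, by 1.98 after rescaling, and by 2.19 (SE 0.25, adjusted p = 5.2e-05) from P5 to 4wk.

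Lamc3 (mm9 chr2:31742811-31802059), a less common gamma chain, was below 1 FPKM in every sample before adulthood. Its values lay between 0.198 and 0.866 FPKM in the embryo (median 0.418), and were 0.478 and 0.360 on P5, 1.65 and 2.71 in the 4wk pair, and 2.79 and 2.46 in the 12wk pair. The lowest adult sample was above the highest earlier sample. Lamc3 rose by 1.21 (SE 0.15, adjusted p = 5e-06) between embryo and adult and by 1.76 after rescaling. It passed the filter of 1 FPKM only through the 4 adult samples, and with no filter the rise as deposited was 1.21 (adjusted p = 5.8e-06). From P5 to 4wk the rise was 1.15 (SE 0.20, adjusted p = 0.00072), and 0.90 without 4wk replicate 2, where the call was lost.

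Both nidogens fell. Nid1 (mm9 chr13:13529869-13604542) was measured at 98.6, 94.0 and 97.7 FPKM at E14.5, 70.7 and 107 on E16.5, 93.4 and 77.6 on E18.5, 85.0 and 77.3 on P5, a mean of 18.2 in the 4wk pair (SD 2.45, n = 2), and 7.71 and 6.70 in the 12wk pair. No difference was called between P5 and embryo (-0.16, SE 0.31, adjusted p = 0.72), while both later steps were called. Nid1 fell by 2.10 (SE 0.18, adjusted p = 8.6e-06) from P5 to 4wk and by 1.23 (SE 0.18, adjusted p = 0.0017) from 4wk to 12wk, and both calls held when any single sample was left out.

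Nid2 (mm9 chr14:20570479-20631009) was called lower already at P5. Its values were 99.8, 66.3 and 68.0 FPKM at E14.5, 45.6 and 65.4 on E16.5, 35.7 and 26.8 on E18.5, 21.6 and 18.8 on P5, 3.98 and 2.83 in the 4wk pair, and 1.51 and 1.12 in the 12wk pair. As deposited, no sample of one time point lay above a sample of the preceding one. Between embryo and adult Nid2 fell by 4.11 (SE 0.32, adjusted p = 1e-07), and by 3.34 after rescaling. P5 against embryo, the difference was -1.37 (SE 0.41, adjusted p = 0.026), and -1.11 (adjusted p = 0.062) after rescaling. That call was lost without P5 replicate 1 (adjusted p = 0.14), without P5 replicate 2 (0.19) and, in the rescaled fit, without E14.5 replicate 1. The ratio of Nid2 to Nid1 was 1.01, 0.706 and 0.696 at E14.5, 0.254 and 0.243 on P5, and 0.168 to 0.199 in the adult.

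Fibronectin, an interstitial matrix protein bound by several integrins, had the second largest fall among the members as deposited. Fn1 was at 169, 116 and 125 FPKM at E14.5, 65.6 and 124 on E16.5, 62.9 and 52.7 on E18.5, 61.4 and 52.0 on P5, 6.82 and 4.04 in the 4wk pair, and 8.26 and 3.70 in the 12wk pair. All 9 samples up to P5 were above 50 FPKM and all 4 adult samples below 9. Fn1 fell by 3.89 (SE 0.31, adjusted p = 1.2e-07) between embryo and adult, by 3.03 after rescaling, and by 3.20 (SE 0.35, adjusted p = 4.1e-05) from P5 to 4wk.

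Both heparan sulphate proteoglycans were called lower in the adult than in the embryo as deposited, and Agrn also after rescaling. Agrn, encoding agrin, was at 33.3 to 72.3 FPKM in the embryo (median 46.9), 40.8 and 32.8 on P5, 5.68 and 3.70 in the 4wk pair, and 7.97 and 7.02 in the 12wk pair. Embryonic and P5 values overlapped one another and lay above the adult ones. Agrn fell by 2.85 (SE 0.23, adjusted p = 1.3e-07) between embryo and adult, by 1.99 after rescaling, and by 2.75 (SE 0.27, adjusted p = 2e-05) from P5 to 4wk. Hspg2, encoding perlecan, was at 14.4 to 35.5 FPKM in the embryo (median 27.0), 27.8 and 19.4 on P5, 10.02 and 5.24 in the 4wk pair, and 5.17 and 3.86 in the 12wk pair. Its change between embryo and adult was -1.85 (SE 0.27, adjusted p = 2.7e-05) as deposited and -0.99 (adjusted p = 0.0023) after rescaling, just inside the threshold. Against P5, Hspg2 fell by 1.85 (SE 0.37, adjusted p = 0.0017) in the adult, and by 1.25 after rescaling, a call that was lost without P5 replicate 1.

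Dag1, whose product is the non-integrin laminin and agrin receptor dystroglycan, was called as deposited only. It was at 45.1 to 84.2 FPKM in the embryo, 51.3 and 47.3 on P5 and 17.96 to 28.3 in the adult. The change was -1.45 (SE 0.17, adjusted p = 4e-06), and -0.53 (adjusted p = 0.005) after rescaling.

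**Figure D4:**
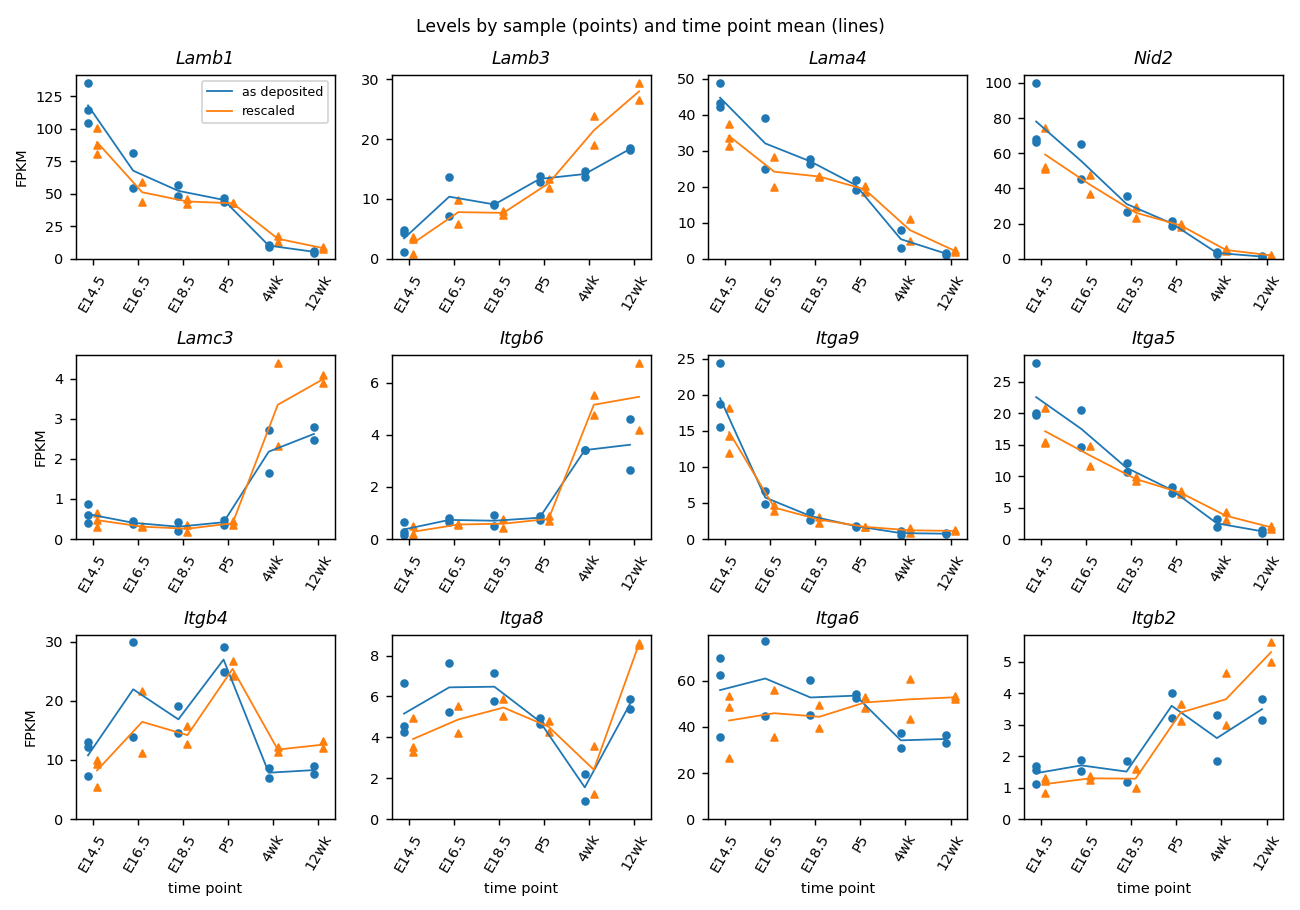
FPKM of 12 genes in every sample (points) and the mean of each time point (lines), as deposited (blue circles) and after median-of-ratios rescaling (orange triangles), with each vertical axis starting at 0. Lamb1, Lama4, Nid2, Itga5 and Itga9 descend under both scalings, Lamb3, Lamc3 and Itgb6 ascend, Itgb4 has its highest mean at P5, Itga8 dips at 4wk, and Itga6 falls as deposited but not after rescaling.

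Among the integrin alpha chains, 3 of the 16 tested fell between embryo and adult under both scalings and none rose. These were Itga2, Itga5 and Itga9, whose products pair with the beta chain of Itgb1. As deposited, 8 of the 16 were called lower, beside 38.0% of all tested genes, and after rescaling 3 were called lower and 1 higher, beside 14.7% and 13.8%. The share called lower after rescaling was thus near that of all genes. Itga5, encoding the main fibronectin receptor chain, was at 27.9, 19.6 and 20.0 FPKM at E14.5, 14.54 and 20.4 on E16.5, 12.0 and 10.6 on E18.5, 8.25 and 7.33 on P5, 3.11 and 1.87 in the 4wk pair, and 1.45 and 1.01 in the 12wk pair. The P5 samples lay between the embryonic and the adult ones. Itga5 fell by 2.71 (SE 0.25, adjusted p = 4.1e-07) between embryo and adult, and by 1.99 after rescaling. Against P5 the adult change was -1.67 (SE 0.34, adjusted p = 0.002), and -1.20 after rescaling, called under both scalings unless P5 replicate 1 was left out.

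Itga9 (mm9 chr9:118515808-118810121), a receptor chain for fibronectin and tenascin, fell earlier. Its level was 24.4, 15.5 and 18.7 FPKM at E14.5, 4.90 and 6.60 on E16.5, 3.78 and 2.59 on E18.5, 1.87 and 1.72 on P5, 1.09 and 0.549 in the 4wk pair, and 0.814 and 0.665 in the 12wk pair. The 3 E14.5 samples were far above all others. Between E14.5 and E16.5 Itga9 fell by 1.59 (SE 0.22, adjusted p = 0.00081), and by 1.55 after rescaling, in every fit that left out 1 sample. Itga9 and Lamb3 were the 2 members called at this step, where 5.15% of all genes were called (4.39% after rescaling). Between embryo and adult the change was -2.41 (SE 0.47, adjusted p = 0.00036), and between embryo and P5 -1.75 (SE 0.60, adjusted p = 0.045), a call that was lost without either P5 sample (adjusted p = 0.21 and 0.23) and, after rescaling, without E14.5 replicate 2 or 3.

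Itga2, a collagen and laminin receptor chain, was at 1.60 to 3.85 FPKM in the embryo (median 3.16), 1.65 and 1.69 on P5, 0.285 and 0.507 in the 4wk pair, and 0.293 and 0.175 in the 12wk pair. Embryonic and adult values did not overlap, and it fell by 1.55 (SE 0.19, adjusted p = 4.9e-06), or 1.13 after rescaling. No adult sample reached the filter of 1 FPKM, and with no filter the change as deposited was -1.55 (adjusted p = 1.6e-05).

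Itga6 was the highest integrin alpha chain in every sample. Its product forms laminin receptors with the products of Itgb1 and Itgb4. Its level was 35.5, 62.7 and 69.8 FPKM at E14.5, 44.6 and 77.4 on E16.5, 60.3 and 45.3 on E18.5, 52.7 and 54.4 on P5, 30.9 and 37.5 in the 4wk pair, and 36.5 and 33.1 in the 12wk pair. The ranges of embryo and adult overlapped. The difference was -0.66 (SE 0.19, adjusted p = 0.0056) as deposited and 0.27 (SE 0.18, adjusted p = 0.21) after rescaling, so its direction depended on the scaling and neither passed the threshold. As a share of integrin alpha FPKM, Itga6 held 23.4 to 40.0% at E14.5, on average 42.7% on E16.5 and 46.7% on E18.5, 47.7 and 51.6% on P5, 48.1 and 59.1% in the 4wk pair, and 53.9 and 55.5% in the 12wk pair. Over the same ages the mean share of Itga5 went from 14.1% at E14.5 to 1.92% at 12wk, and that of Itga9 from 12.2% to 1.16%.

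**Figure D5:**
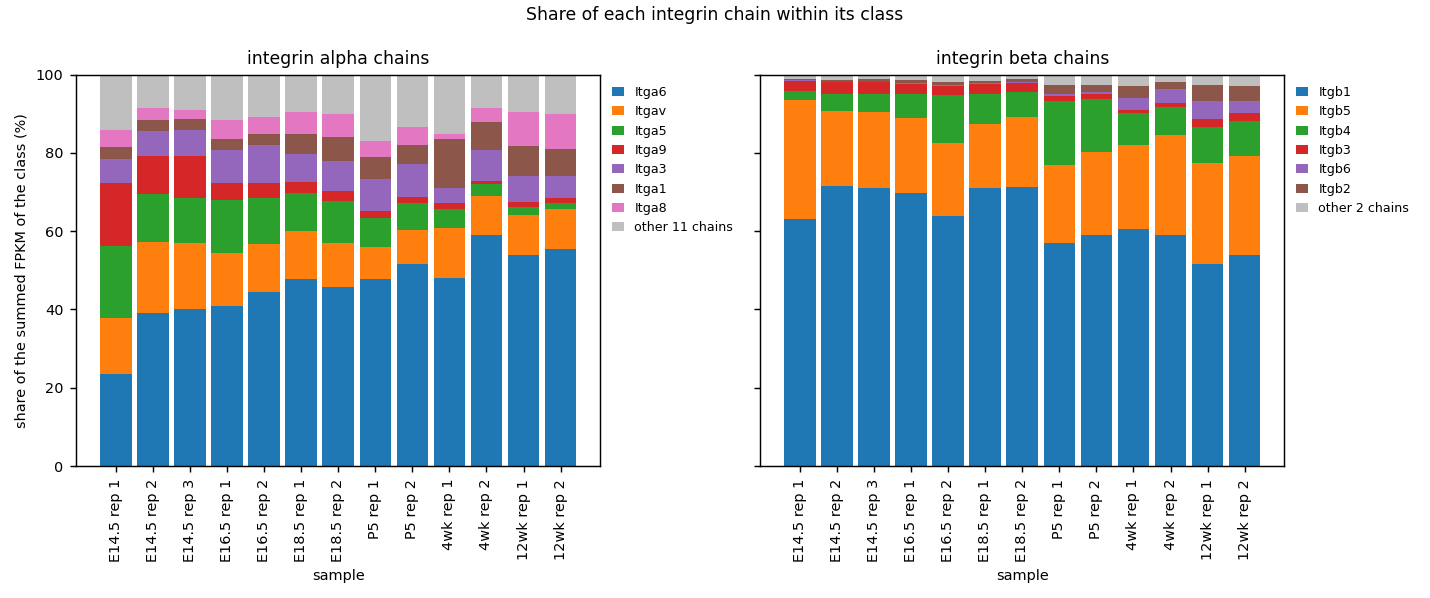
Share (percent, stacked bars) of the integrin alpha chains (left) and beta chains (right) in the summed FPKM of their class, for each of 13 samples ordered by age, with the least abundant chains joined in grey. Itga6 takes the largest part of the alpha chains and Itgb1 of the beta chains in every sample, Itga5 and Itga9 shrink with age, and Itgb6 appears in the 4 adult samples.

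Itga8 was the member that rose from 4wk to 12wk. Its product binds nephronectin, and its level was 4.28 to 7.66 FPKM in the embryo, 4.64 and 4.93 on P5, 0.892 and 2.22 in the 4wk pair, and 5.88 and 5.38 in the 12wk pair. The 4wk samples were thus below all others. The rise from 4wk to 12wk was 1.43 (SE 0.27, adjusted p = 0.0062), 1.57 after rescaling, and held when any single sample was left out. The preceding difference, 4wk against P5, was -1.23 (SE 0.27, adjusted p = 0.0026) as deposited and was not called after rescaling. Since the adult group joins 4wk and 12wk, the difference between adult and embryo was -0.75 (SE 0.30, adjusted p = 0.034), not called. Itga8, Nid1 and Lama4 were the 3 members called between 4wk and 12wk under both scalings, beside 5.15% of all genes as deposited and 6.87% after rescaling.

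Itga7, a laminin receptor chain of muscle, was at 2.80, 2.36 and 2.89 FPKM at E14.5, 3.34 and 5.13 on E16.5, 1.99 and 1.82 on E18.5, 6.18 and 3.45 on P5, 1.67 and 0.531 in the 4wk pair, and 0.410 and 0.578 in the 12wk pair. It fell between P5 and the adult by 1.70 (SE 0.33, adjusted p = 0.0014), or 1.37 after rescaling, a call lost without P5 replicate 1. The step from P5 to 4wk, -1.48 (SE 0.29, adjusted p = 0.0013), was lost without that sample or without 4wk replicate 2. The summed level of 6 skeletal muscle markers was 106.5 to 270.4 FPKM on E14.5 and 397.7 to 888.5 on E16.5, and then only 2.55 to 21.8 on E18.5, 1.42 to 6.24 on P5, 1.19 to 17.3 in the 4wk pair and 1.04 to 1.69 in the 12wk pair. Of the 6, Myh3, Myh8 and Myog were at 0 in both 4wk samples, whereas Acta1, Ckm and Tnnt3 were at 6.57, 3.04 and 7.67 FPKM in 4wk replicate 1, the adult sample with the highest Itga7, and at 0.480, 0.711 and 0 in 4wk replicate 2. The part of muscle in the level of Itga7 was not tested.

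Between embryo and adult, further integrin alpha chains called lower as deposited, but not after rescaling, were Itga7, Itgav, Itga3, Itga4 and Itga2b. Itga7, described above, changed by -1.12 (adjusted p = 0.00066), and by -0.61 after rescaling. Itgav, whose product binds RGD-containing ligands such as fibronectin and vitronectin, was at 11.2 to 29.6 FPKM in the embryo, 9.14 and 9.02 on P5 and 6.01 to 8.09 in the adult (-1.39, SE 0.23, adjusted p = 7.1e-05, and -0.53 after rescaling). Itga3, a laminin receptor chain of epithelia, was at 7.51 to 17.2 and 2.37 to 5.02 FPKM in embryo and adult (-1.26, and -0.45 after rescaling). Itga4, a chain of leukocytes and mesenchyme that binds Vcam1 and fibronectin, was at 1.24 to 6.44 and 0.371 to 0.682 FPKM (-1.11, and -0.65 after rescaling), and its call was lost without E14.5 replicate 1 (-0.91). Itga2b, at -1.0 as deposited, stood at the threshold, and its call was lost without E14.5 replicate 1, without either E16.5 sample, without E18.5 replicate 1, without 4wk replicate 1 and without 12wk replicate 2, with changes of -0.92 to -1.0. No adult sample reached the filter of 1 FPKM for Itga4 or Itga2b. With no filter their changes as deposited were -1.11 (adjusted p = 0.0031) and -1.0 (adjusted p = 1.6e-05). Itga1, a collagen receptor chain, was not called, with 3.30 to 6.32 FPKM in the embryo and 4.17 to 8.02 in the adult (0.09, SE 0.18, adjusted p = 0.64, and 0.89 after rescaling). Itga10 and Itga11, both collagen receptor chains, did not exceed 1.86 FPKM in any sample and passed the filter only through embryonic samples. Their differences between adult and embryo were -0.37 and -0.64 as deposited, not called. With a pseudocount of 0.1 that of Itga11 was -1.67 (adjusted p = 0.0037), which passed the threshold.

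Of the integrin beta chains, Itgb1, the common partner of most alpha chains, was the highest in every sample. Its values were 195, 206 and 203 FPKM at E14.5, 159 and 156 on E16.5, 176 and 164 on E18.5, 102 and 108 on P5, 64.1 and 58.9 in the 4wk pair, and 50.9 and 45.6 in the 12wk pair. Embryo, P5 and adult did not overlap. The change between embryo and adult was -1.70 (SE 0.13, adjusted p = 6.5e-08) as deposited, and -0.76 (SE 0.12, adjusted p = 0.00014) after rescaling, which is below the fold threshold. Its share of integrin beta FPKM was 63.2 to 71.6% in the embryo, 56.9 and 59.1% on P5, and 51.6 to 60.5% in the adult. Itgb5, a partner of the alpha chain of Itgav, was second, at 40.2 to 93.3 FPKM in the embryo and 21.3 to 25.4 in the adult (-1.08, and -0.16 after rescaling), and its call as deposited was lost without E14.5 replicate 1 (-0.94).

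Itgb6 (mm9 chr2:60436349-60560700), an epithelial chain that pairs with the product of Itgav and is known for activating TGF-beta, was the integrin chain that rose. It was measured at 0.670, 0.170 and 0.264 FPKM at E14.5, 0.659 and 0.808 on E16.5, 0.914 and 0.489 on E18.5, 0.737 and 0.896 on P5, 3.40 and 3.42 in the 4wk pair, and 4.59 and 2.64 in the 12wk pair. All 9 samples up to P5 stayed below 1 FPKM and the 4 adult samples above 2.6. Since only the adult samples took Itgb6 past the filter of 1 FPKM, its fit without that filter is given as well. Itgb6 rose by 1.53 (SE 0.17, adjusted p = 1.9e-06) between embryo and adult, and by 2.12 after rescaling. With no filter on low values the rise as deposited was 1.53 (adjusted p = 4.6e-06). From P5 to 4wk the rise was 1.28 (SE 0.24, adjusted p = 0.00097). Both calls held when any single sample was left out. Its share of integrin beta FPKM was at most 0.488% up to P5 and 3.12 to 4.66% in the adult.

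Itgb3, which pairs with the alpha chains of Itgav and, in platelets, Itga2b, was at 5.54 to 8.95 FPKM in the embryo (median 6.28), 2.44 and 2.49 on P5, 0.595 and 1.13 in the 4wk pair, and 2.15 and 1.61 in the 12wk pair. It fell by 1.78 (SE 0.19, adjusted p = 1.5e-06) between embryo and adult and by 1.12 after rescaling, a call under both scalings that was lost without 4wk replicate 1. Itga2b itself was at 1.21 to 1.88 FPKM in the embryo and 0.1 to 0.585 in the adult. The 5 platelet markers summed to 11.8 to 92.8 FPKM in the embryo and 8.49 to 19.0 in the adult. Most of this sum was Pf4, at 9.70 to 91.8 FPKM in the embryo and 7.78 to 19.0 in the adult, and none of the 3 platelet markers tested was called by limma under either scaling, although Ppbp and Gp9 had adjusted p values of 0.0028 and 0.03 as deposited with changes of -0.64 and -0.51. The part of platelets in these levels was not tested.

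Itgb4, the beta chain of the hemidesmosomal laminin receptor, had its highest time point mean at P5. Its level was 7.26, 12.1 and 12.96 FPKM at E14.5, 13.96 and 29.9 on E16.5, 19.2 and 14.6 on E18.5, 29.1 and 24.9 on P5, 8.67 and 7.03 in the 4wk pair, and 8.98 and 7.60 in the 12wk pair. As deposited, the highest single value was that of E16.5 replicate 2, while after rescaling both P5 samples (26.68 and 24.1) were above it (21.7). From P5 to 4wk Itgb4 fell by 1.66 (SE 0.32, adjusted p = 0.0013), or 1.05 after rescaling, a call lost without P5 replicate 1. Adult against P5, it changed by -1.63 as deposited and by -1.0 (adjusted p = 0.051) after rescaling, a call at the threshold that was lost without either P5 sample, without 4wk replicate 2 or without 12wk replicate 2. The ratio of Itgb4 to Itga6 was 0.186 to 0.205 at E14.5, 0.551 and 0.457 on P5, and 0.188 to 0.280 in the adult. Itgb8, a further partner of the product of Itgav, was at 1.71 to 3.49 FPKM in the embryo and 1.26 to 1.499 in the adult and was not called.

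The leukocyte beta chain Itgb2 and its partners were not called lower in the adult than in the embryo under either scaling. Itgb2, the beta chain shared by Itgal, Itgam, Itgax and Itgad, was at 1.12 to 1.88 FPKM in the embryo, 4.00 and 3.20 on P5, 3.30 and 1.84 in the 4wk pair, and 3.83 and 3.16 in the 12wk pair. Itgax, a chain of dendritic cells and macrophages, was at 0.0859 to 0.240 FPKM in the embryo, 0.555 and 0.495 on P5, 1.75 and 0.531 in the 4wk pair, and 0.786 and 0.577 in the 12wk pair. Itgb2 was called higher in the adult after rescaling (1.31, adjusted p = 6.9e-06) but not as deposited (0.65). Itgax reached 1 FPKM in 4wk replicate 1 alone, a sample of the group where it is higher, and without that sample it was not tested. Its difference is therefore only a description, 0.70 as deposited and 1.03 after rescaling, where it counts among the calls. Itgal was at 0.873 to 2.62 FPKM over all samples, Itgam at 1.18 to 2.35 and Itgb7, the partner of Itga4 and Itgae on lymphocytes, at 0.658 to 2.56. The differences of Itgal, Itgam and Itgb7 between adult and embryo were 0.06, 0.05 and 0.19 as deposited, none of them called under either scaling.

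The 8 leukocyte markers summed to 31.4 to 44.4 FPKM in the embryo, 75.0 to 87.5 at P5 and 34.0 to 59.9 in the adult. Of the 7 tested, 4 were called higher in the adult after rescaling (13.8% of all genes) and 0 as deposited (5.58%). The ratio of Itgb2 to the pan-leukocyte gene Ptprc was 0.425 to 1.08 in the embryo, 0.658 and 0.660 on P5, and 0.516 to 1.19 in the adult. The ratio of Itgax to Ptprc was 0.0307 to 0.138 in the embryo, 0.0914 and 0.102 on P5, and 0.187 to 0.274 in the adult, without overlap of embryo and adult. Itgad, a further partner of Itgb2, had at most 7 reads in any sample, and Itgae was at 0.0965 to 0.451 FPKM.

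Most of the calls between neighbouring time points fell on the step from P5 to 4wk, as they did over all tested genes. Of all genes, 3556 were called at this step as deposited, against 430 to 755 at each other neighbouring step. Between P5 and 4wk, 12 of the 41 changed under both scalings, with Itgb6 and Lamc3 rising and Agrn, Fn1, Itga7, Itgb4, Lama4, Lamb1, Lamb2, Lamc1, Nid1 and Nid2 falling. As deposited 19 were called at this step (background 24.3%), and 12 after rescaling (15.1%). For adult against P5, 20 were called, 2 higher and 18 lower (background 23.1%, with 2.31% higher and 20.8% lower). After rescaling 13 were called, 2 higher and 11 lower (background 14.6%, with 6.05% higher and 8.53% lower), and all 13 were called under both. Between embryo and P5, Itga9 and Nid2 were called lower under both scalings, out of 5 called as deposited, all lower (background 12.3%, with 4.14% higher and 8.14% lower), and 4 after rescaling, 2 in each direction (background 9.45%, with 5.55% higher and 3.9% lower). No member was called between E16.5 and E18.5 by limma under either scaling, where 2.94% of all genes were called as deposited and 2.48% after rescaling. At this step 5 members had an unadjusted p under 0.05 as deposited and 4 after rescaling. Between E18.5 and P5, 0 members were called as deposited and Itga7 alone was called higher after rescaling (1.04, adjusted p = 0.033). The shares of all genes called there were 5.04% and 4.16%. An unadjusted p under 0.05 was reached by 10 members as deposited and 9 after rescaling. The share of all genes under that unadjusted p is not given for either step. These comparisons share samples, so their counts are not independent of each other.

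By time point means as deposited, E14.5 was highest for 20 of the 43 members, E16.5 for 7, E18.5 for 3, P5 for 7, 4wk for 2 and 12wk for 4. After rescaling, 17 were highest at E14.5, 9 at P5 and 9 at 12wk. The shares over all genes are not given, so these counts only describe the members.

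Other genes of the basement membrane and of integrin adhesion are given for the comparison of adult with embryo, in which 38.0% of all tested genes were called lower and 5.58% higher as deposited, and 14.7% lower and 13.8% higher after rescaling. Of 8 tested genes of type IV and associated basement membrane collagens, 6 were called lower under each scaling, the same 6 under both (median of the list -2.35, and -1.54 after rescaling). Col4a1, the main partner chain of type IV collagen together with Col4a2, was at 148.5 to 270.0 FPKM in the embryo and 15.2 to 50.9 in the adult, and fell by 2.75 (SE 0.31, adjusted p = 2.8e-06), or 1.82 after rescaling. Col4a5 and Col4a2 changed by -2.59 and -2.47. Of 17 other basement membrane genes, 13 were called lower as deposited and 11 after rescaling, all 11 under both scalings, and 1 was called higher after rescaling only (median -2.06, and -1.38 after rescaling). Pxdn, the peroxidase that forms sulfilimine cross-links in type IV collagen, fell by 3.69 (SE 0.35, adjusted p = 5.5e-07), and Fbln1 and the matricellular gene Smoc2 changed by -3.01 and -2.91.

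Among 18 further ligands of integrins, 10 were called lower and 1 higher as deposited (background 38.0% and 5.58%) and 9 lower and 2 higher after rescaling (14.7% and 13.8%), with 9 falling and 1 rising under both scalings (median -1.40, and -0.90 after rescaling). Emilin1 fell by 3.76 (SE 0.25, adjusted p = 3.1e-08), the microfibril gene Fbn1 changed by -3.52 and Nov by -3.14. The gene that rose was Spp1, osteopontin, named here after its value was seen, with 0.0558 to 1.78 FPKM in the embryo and 10.2 to 13.6 in the adult (3.03, SE 0.24, adjusted p = 9.9e-08).

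Of 24 adaptor and focal adhesion genes, 15 were called lower as deposited (background 38.0%), and 3 lower and 2 higher after rescaling (14.7% and 13.8%), where the share called lower was near that of all genes (median -1.14, and -0.25 after rescaling). The 3 fell under both scalings. Tln2, a talin that links integrins to actin, changed by -2.47 (SE 0.18), Flna, a filamin, by -1.93 (SE 0.25), and Itgb1bp2, a muscle gene named after its value was seen, by -2.33 (SE 0.71). Of 21 genes of the dystrophin complex and of dystroglycan modification, 8 were called lower and 0 higher as deposited (background 38.0% and 5.58%). After rescaling 1 was called lower and 5 higher (14.7% and 13.8%). The share called lower as deposited was near that of all genes. Sgcb fell under both (-1.86, SE 0.15). The list's median was -0.67 as deposited and 0.12 after rescaling, and moved with the -0.75 and -0.08 of all genes. None of the 6 hemidesmosome partners of Itgb4 was called under both scalings (median -0.46, and 0.33 after rescaling). As deposited 2 were called lower and 0 higher (background 38.0% and 5.58%), and after rescaling 0 lower and 1 higher (14.7% and 13.8%). The genes called under 1 scaling are named here. Col17a1, the transmembrane collagen of hemidesmosomes, was at 6.84 to 27.2 FPKM in the embryo and 2.49 to 4.66 in the adult (-1.62, and -0.81 after rescaling). Krt14 was also called lower as deposited (-1.02, and -0.09 after rescaling). Krt5 went the other way (0.40, and 1.30 after rescaling, where it was called higher). Plec, Dst and Cd151 were not called under either scaling.

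Markers of cell types differed in how they changed between embryo and adult. Of all tested genes, 38.0% were called lower and 5.58% higher as deposited, and 14.7% lower and 13.8% higher after rescaling. The 6 mesenchyme markers, Col1a1 and Pdgfra among them, summed to 1281 to 2168 FPKM in the embryo, 1207 to 1377 at P5, 202.3 to 244.9 at 4wk and 43.4 to 69.0 at 12wk, and all 6 were called lower in the adult under both scalings. The 5 endothelial markers summed to 84.8 to 119.7 FPKM in the embryo and 19.1 to 37.6 in the adult, with 5 called lower as deposited and 3 after rescaling. The 5 general epithelial markers summed to 316.2 to 1457 FPKM in the embryo and 611.5 to 723.9 in the adult, with 1 called lower under either scaling. The 6 basal and myoepithelial markers summed to 123.2 to 275.7 and 202.6 to 443.9 FPKM, with Acta2 as the largest part in the adult. As deposited 2 were called higher (Myh11, 3.55, and Cnn1, 3.39) and 2 lower (Krt14, -1.02, and Trp63, -1.59), and after rescaling 4 were called higher (Myh11, Cnn1, Acta2 and Krt5) and 0 lower. The part of these cell types in the changes of Lamb1, Lamc1, Lama4, the nidogens, Fn1 and the integrin chains was not tested, and in whole glands fewer cells of a type and less RNA per cell cannot be told apart.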

How the data were processed

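Per the study's methods, short single-end reads were aligned by the authors to mm9 using TopHat2 2.0.13 and Bowtie2 2.2.6, and counted by featureCounts, leaving out reads with several positions or genes. The authors named DESeq2 1.10.1 for normalization. The authors deposited FPKM values, 1 file per sample, which show no between-sample normalization. The library kit was not stated to be stranded, so overlapping and antisense genes cannot be told apart.

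Here, genes reaching 1 FPKM in any sample were tested with limma 3.58.1 (mean-variance trend, R 4.3.3) on log2(FPKM + 1), with Benjamini-Hochberg adjustment over 14650 genes, all 13 samples being in each fit. Fits used 3 stages or 6 time points. Calls required an adjusted p below 0.1 and a log2 change of 1, the study's thresholds. The median-of-ratios factors used the 13039 genes above 0 in all samples. Members called under both scalings in any of 8 comparisons, and the highest chain of each class, were named with their values, and in each companion list up to 3 called genes with the largest change and no overlap. Alternatives were another pseudocount (0.1), no low-value filter, a threshold of 0.05, fewer samples, a replicate block and leaving out each sample. The fit was tested on simulated data. Members and lists were chosen with earlier results of these data known. Fold changes of low genes are understated on this scale, and reads cover counting error only. The values of 1 member are not reported here, and it is counted in the totals.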

Additional observations from a re-analysis of the deposited data

Results flagged for a closer look

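In groups of 4 to 10 samples, a single sample stood far from the others for 8 of 86 combinations of member and stage. The rule's nominal rate of about 1 in 20 is for independent values of a single population. Here the embryo joins 3 time points and the members share samples, so that rate is no measure of an excess. Of the 8, 3 fell on E14.5 replicate 1, with 6.435 FPKM for Itga4 (next highest embryonic sample 2.279), 93.33 for Itgb5 (next 55.08) and 1.435 for Itgb7 (next 0.9322). A further 3 fell on E16.5 replicate 2, with 17.2 FPKM for Itga3 (next 11.38), 21.82 for Lama5 (next 12.69) and 30.81 for Lamb2 (next 18.96). The remaining 2 fell on 4wk replicate 1, the shallowest sample, with 1.668 FPKM for Itga7 (next highest adult sample 0.5775) and 0.3036 for Itgad (next 0.0634). In E14.5 replicate 1 the muscle gene Myh3 was at 64.96 FPKM against 17.78 and 18.09 in the other E14.5 samples. Myh8, Acta1, Myog and Tnnt3 were likewise highest there, but Ckm was lowest, at 5.791 against 10.37 and 6.9. In E16.5 replicate 2 the muscle genes Acta1, Myh8 and Myh3 were at 465.6, 75.6 and 52.94 FPKM against 186.4, 16.15 and 15.49 in E16.5 replicate 1. In 4wk replicate 1 the muscle gene Tnnt3 was at 7.667 FPKM against 0 in 4wk replicate 2. Acta1 and Ckm were higher there too, while Myh3, Myh8 and Myog were at 0 in both 4wk samples. The part of these differences in the values above was not tested.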

How the results depend on the processing

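No member called as deposited changed sign under any alternative. Over 3320 combinations of a member, a comparison and an alternative, 3204 kept their side of the thresholds, 79 lost a call and 37 gained one. These did not cover every member in every comparison. For the alternative with no filter, for example, 149 pairs of a member and a comparison entered. Rescaling took the called members from 20 to 13 for adult against P5, from 19 to 12 for 4wk against P5, and from 0 to 1 for P5 against E18.5. With a pseudocount of 0.1 the counts were 8 for P5 against embryo, 6 for P5 against E18.5 and 6 for 12wk against 4wk. Averaging 6 time points by stage gave 3 for P5 against embryo, and fitting only the groups compared gave 1 for E16.5 against E14.5. The cause of these shifts was not tested.

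Leaving out 1 sample at a time gave 22 to 27 called members for adult against embryo (14 to 15 under both scalings), 1 to 6 for P5 against embryo (0 to 4, with 0 without either P5 sample, 1 without any one E14.5 sample and 4 without E16.5 replicate 2; as deposited, 3 without E14.5 replicate 1 and 1 without either P5 sample), 18 to 20 for adult against P5 (9 to 13), 1 to 4 for E16.5 against E14.5 (1 to 3; the lowest without E14.5 replicate 1, the highest as deposited without E16.5 replicate 1), 0 to 5 for E18.5 against E16.5 (0 under both, with 5 as deposited without E16.5 replicate 1), 0 to 4 for P5 against E18.5 (0 to 3, the highest without P5 replicate 2), 16 to 19 for 4wk against P5 (10 to 13), and 2 to 5 for 12wk against 4wk (2 to 4; 5 as deposited without 4wk replicate 2). Counts under both scalings, and those for 12wk alone, were added after seeing the data.

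Replicate numbers did not pair the samples: deviations of samples with the same number correlated at -0.016 on average over 30 pairs, against 0.012 over 40 pairs with different numbers. With the replicate number as a block, the count under both scalings for P5 against embryo went from 2 to 0, and no other count moved by over 1.5 times. Depth limits the 4wk samples most, where 1 read at 1 kb was worth 0.1719 and 0.1257 FPKM.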
